A study of Mus musculus with 12 samples.

Results

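The oligoadenylate synthetase (OAS) family was followed in mouse bone marrow-derived macrophages (BMMs) through its 8 members Oas1a, Oas1b, Oas1c, Oas1g, Oas2, Oas3, Oasl1 and Oasl2, taken by their symbols from 24394 named genes. All 8 were listed in every library, and all 8 passed the filter on low values in both series of libraries. Another 4 genes of the family, Oas1d, Oas1e, Oas1f and Oas1h, held at most 5 reads in any library and at most 0.164 CPM (read counts scaled so that every library has the same total), and were not followed further.

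The active enzymes of the OAS family bind double-stranded RNA and then join ATP into short chains of adenylate with an unusual linkage. The chains serve as messengers of the antiviral response, and the phosphodiesterase PDE12 and, in rodents, AKAP7 can break the chains down. The genes belong to the interferon-stimulated genes, are known for their part in antiviral defence in macrophages, and are induced through a transcription complex that contains STAT2 and IRF9 and binds interferon-stimulated response elements in their promoters.

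The libraries covered 6 conditions with 2 replicates each, all from mice carrying Cre recombinase under the myeloid lysozyme M promoter (LysMcre). The paper names C57BL/6 as the background of the LysMcre line. For loss of function, cells with intact Mir182, Mir182+/+LysMcre(+) (WT), were set beside cells with a floxed Mir182, Mir182flox/floxLysMcre(+) (Mir182ΔM/ΔM, here KO), each without stimulation (basal) and after 5 days of RANKL, the cytokine that drives macrophages to become osteoclasts. For gain of function, LysMcre(+) cells (Control) were set beside LSL-Mir182LysMcre(+) cells that express the microRNA once Cre removes a stop cassette (Mir182mTg, here mTg), both basal only. Every culture started with 3 days of M-CSF, the macrophage growth factor, and deletion and overexpression were limited to cells in which the lysozyme M promoter is active. The labels give no age and do not say whether the replicates came from separate mice. The paper calls the 2 replicates of a condition independent biological ones. By the labels, replicate 1 is polyA RNA and replicate 2 total RNA. P-values thus measure the spread between these libraries, which may be technical.

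Between 24951280 and 33050619 reads fell on genes per library, so that 3 reads corresponded to 0.0908 to 0.120 CPM. The microRNA's own gene row, Mir182, read 0 in both WT basal, both WT RANKL, both KO RANKL and both Control libraries, 0.0370 and 0 CPM in KO basal, and 2.39 and 4.40 CPM in mTg, so it placed the mTg libraries as labelled and checked nothing in the KO comparison. All 6 macrophage markers were detected at 1 CPM in every condition, and the summed osteoclast markers stood at 9892 and 10230 CPM in WT RANKL, at 3044 and 3051 CPM in KO RANKL and at 39.6 to 74.8 CPM in the 8 basal libraries. Markers of plasmacytoid dendritic cells, which are strong interferon producers, summed to at most 1.07 CPM in any library, and those of T and B cells to at most 0.272 and 0.306 CPM. The WT RANKL libraries were unlike the remaining loss of function libraries in 2 genes. Lyz2, the gene of lysozyme M into which Cre is inserted, read 4117 and 4288 CPM there against 22.5 to 44.0 CPM in the other 6 and 5783 to 7062 CPM in Control and mTg. Ifi202b likewise read 1.12 and 0.972 CPM in WT RANKL, 82.1 to 152 CPM in the other 6 loss of function libraries and at most 0.0908 CPM in Control and mTg. The part of this difference in the OAS results was not tested. For the members, KO RANKL is also set beside WT basal, a contrast in which both genotype and RANKL differ.

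The members lie in 2 groups on chromosome 5 of the GRCm38 build (also called mm10; GENCODE vM21 annotation). Oasl2 (chr5:114896936-114912234) and Oasl1 (chr5:114923240-114937915) are neighbours on the plus strand. The other members follow in one run. On the minus strand lie Oas2 (chr5:120730333-120749853), Oas3 (chr5:120753098-120777661), Oas1c (chr5:120800194-120812514), Oas1g (chr5:120876142-120887613) and Oas1a (chr5:120896256-120907521). Oas1b (chr5:120812635-120824163) lies on the plus strand, where it is annotated as a polymorphic pseudogene. Genes next to both runs were also read, 3 on each side. Of these, Ddx54, Ptpn11, Ankrd13a and Sppl3 had mean levels of 117, 127, 260 and 49.03 CPM in KO RANKL. In WT basal, which differs from KO RANKL in genotype and RANKL, they had 80.6, 120, 328 and 57.7 CPM. The other neighbours and conditions are not given here.

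The RefSeq promoter table (GRCm38.p6) held windows for 6 members: Oas1a, Oas1c, Oas1g, Oas3, Oasl1 and Oasl2. The 120 bases before the start site of each are given because every member was highest in KO RANKL. Matches to GAAANNGAA, the core of the interferon-stimulated response element, are in capitals.
Oas1a, chr5:120907526-120907645, minus strand: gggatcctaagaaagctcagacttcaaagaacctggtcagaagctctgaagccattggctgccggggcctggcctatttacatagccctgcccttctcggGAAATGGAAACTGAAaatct
Oas1g, chr5:120887614-120887733, minus strand: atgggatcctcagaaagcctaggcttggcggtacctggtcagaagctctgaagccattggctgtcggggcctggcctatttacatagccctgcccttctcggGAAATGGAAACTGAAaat
Oas3, chr5:120777660-120777779, minus strand: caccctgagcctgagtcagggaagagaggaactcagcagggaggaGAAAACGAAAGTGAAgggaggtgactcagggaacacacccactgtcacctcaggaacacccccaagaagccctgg
Oas1c, chr5:120812515-120812634, minus strand: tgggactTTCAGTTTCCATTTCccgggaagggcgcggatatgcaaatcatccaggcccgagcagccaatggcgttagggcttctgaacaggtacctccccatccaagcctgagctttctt
Oasl1, chr5:114923120-114923239, plus strand: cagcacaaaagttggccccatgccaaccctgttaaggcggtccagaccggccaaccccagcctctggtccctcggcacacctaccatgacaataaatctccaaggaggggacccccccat
Oasl2, chr5:114896814-114896933, plus strand: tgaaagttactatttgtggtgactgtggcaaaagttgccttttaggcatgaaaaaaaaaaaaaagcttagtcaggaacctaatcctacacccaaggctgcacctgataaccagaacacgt
Sequences run 5′ to 3′ along the strand of the gene. Both strands of the windows, 250 bases before to 50 after the start, were searched. In each of Oas1a, Oas1g, Oas3 and Oas1c there were 2 matches that overlap each other, centred 16 and 10 bases before the start of Oas1a, 14 and 8 bases before that of Oas1g, 71 and 65 bases before that of Oas3, and 109 and 103 bases before that of Oas1c. The windows of Oasl1 and Oasl2 held no match, although both genes belonged to the members that differed most below. Of all 32851 windows of this length, 8.56% held GAAANNGAA. The GAS-like core TTCNNNGAA, found in 8.3% of windows, occurred in that of Oas1a alone, centred 94 bases before the start. When Oas1a and Oas1g were aligned at the motif, 10 of 118 bases differed. In Oas1c the match lies on the other strand, and the 120 bases shown are all that separates its start from that of Oas1b, which is read in the opposite direction, so that seen from Oas1b the same matches are centred 12 and 18 bases before its start. A match is a description of letters and shows no binding.

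Across all 12 libraries every member was highest in KO RANKL, and 7 members were lowest in mTg, with Oas1c lowest in WT RANKL. KO basal was second for all 8. For Oasl1 and Oasl2 no neighbours in the order of conditions overlapped. Oasl1 went down from KO RANKL and KO basal through WT RANKL, Control and WT basal to mTg, and Oasl2 through WT basal, Control and WT RANKL to mTg. For Oas3, WT basal overlapped with Control and WT RANKL with mTg, and for Oas2 only WT RANKL and WT basal overlapped. For Oas1a the 4 conditions under KO basal overlapped from neighbour to neighbour, for Oas1g WT RANKL, Control and WT basal did, and for Oas1b WT RANKL, Control and mTg did. For Oas1c the overlaps were between KO RANKL and KO basal and between Control and mTg. These orders are seen in the plot of the members by library. They span 2 series, whose unstimulated cells with intact Mir182, WT basal and Control, differed too. WT basal over Control ranged from 0.850-fold (Oasl1) to 1.80-fold (Oasl2) in mean CPM, with a median of 1.41-fold. A difference between the series cannot be told apart from one between conditions where an order crosses them.

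**Figure D1:**
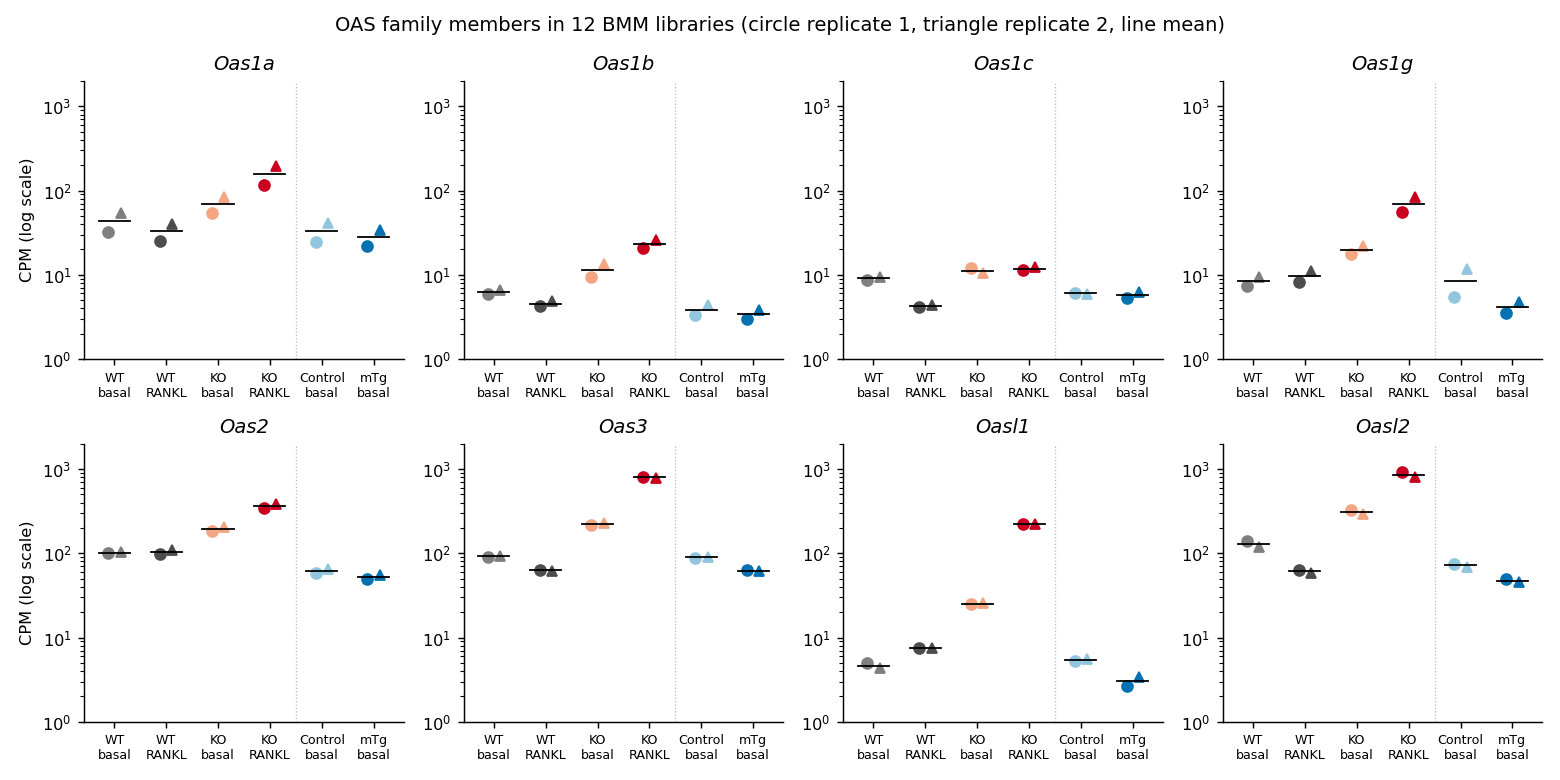
CPM of the 8 OAS genes (log axis) in each library of the 6 conditions; circles are replicate 1, triangles replicate 2 and black lines the mean of both, and the dotted line separates the loss of function from the gain of function libraries. Every gene peaks in KO RANKL, from 11.8 CPM (Oas1c) to 857 CPM (Oasl2), and Oas1c shows the least difference between KO RANKL and KO basal.

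After RANKL, all 8 members were higher in KO than in WT cells, by 2.77-fold (Oas1c) to 29.7-fold (Oasl1) in mean CPM, with a median of 6.21-fold. In this comparison 14.3% of the 11673 genes tested were called higher and 30.9% lower (limma on log2(CPM + 1), adjusted p under 0.05). The groups did not overlap for any member, KO RANKL being the higher, which 23.1% of the genes tested showed too. The members' median log2 fold change was 2.47, beside a median of -0.14 over all genes tested. Of the genes called here 31.6% were higher, and 50.8% with TMM factors, under which all 8 members were called higher too. Markers of other cells moved with this comparison: all 6 osteoclast markers were lower in KO RANKL, and the 2 endothelial markers summed to 5.47 to 6.04 CPM in KO RANKL and 0.479 to 0.648 CPM in WT RANKL. Of 4 neutrophil markers tested 3 were lower, with these 4 summing to 1.91 to 2.24 CPM against 5.35 to 5.54 CPM. Of the 6 macrophage markers 2 were higher and 1 lower, 1 of 2 stromal markers tested was higher, and the 1 dendritic cell marker tested was lower. Their part in the OAS result was not tested. The comparison also rests on the WT RANKL libraries, which stand apart in Lyz2 and Ifi202b. A difference in the cells therefore cannot be told apart from one of genotype here.

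Among the OAS1 genes, Oas1a read 25.2 and 40.5 CPM in WT RANKL and 116 and 197 CPM in KO RANKL. The log2 fold change of Oas1a was 2.21 ± 0.37 (standard error, SE; limma adjusted p = 0.00275). Oas1g, the paralog closest to Oas1a in sequence, read 8.18 and 11.01 CPM in WT RANKL and 56.0 and 84.2 CPM in KO RANKL. In both genes the lower KO RANKL library was above the higher WT RANKL library. For Oas1g the log2 fold change was 2.73 ± 0.23 (limma adjusted p = 1.104e-04). Oas1b, annotated as a polymorphic pseudogene, read 4.27 and 4.86 CPM against 20.8 and 25.9 CPM, which is 2.12 ± 0.18 in log2 (limma adjusted p = 1.056e-04). Oas1c had the least difference of the family, 4.15 and 4.35 CPM against 11.3 and 12.3 CPM, or 1.28 ± 0.10 in log2 (limma adjusted p = 8.591e-05).

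Oas2 and Oas3 encode the larger synthetases with repeated synthetase units. Oas2 read 97.9 and 108 CPM in WT RANKL and 348 and 382 CPM in KO RANKL, and rose by 1.81 ± 0.08 in log2 (limma adjusted p = 7.978e-06). Oas3, the longest enzyme of the family and the one with the highest affinity for long double-stranded RNA, read 63.3 and 62.0 CPM against 803 and 794 CPM. The difference was 3.65 ± 0.06 in log2 (limma adjusted p = 1.213e-07). Oas3 had the largest fold in this comparison among the members other than Oasl1 and Oasl2. Oasl1 and Oasl2 encode the OAS-like proteins with ubiquitin-like domains; mouse OASL1 is known as a translational inhibitor of Irf7 mRNA. Oasl1 went from 7.54 and 7.45 CPM in WT RANKL to 221 and 225 CPM in KO RANKL, or 4.72 ± 0.08 in log2 (limma adjusted p = 2e-07), which ranked 8 from the top of 11673 genes. Oasl2 read 63.8 and 58.6 CPM against 912 and 801 CPM, or 3.78 ± 0.11 in log2 (limma adjusted p = 1.332e-06).

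Set beside WT basal, which differed from KO RANKL in RANKL as well as in genotype, all 8 members were higher in KO RANKL, where 33.9% of genes were called higher. The log2 fold changes of this mixed contrast, which cannot tell genotype from RANKL, were 5.31 for Oasl1, 3.10 for Oas3, 2.89 for Oas1g, 2.72 for Oasl2, 1.84 for Oas2, 1.83 for Oas1a and 1.74 for Oas1b. Oas1c gave 0.34 ± 0.10 (limma adjusted p = 0.0226), with 8.68 and 9.46 CPM in WT basal and 11.3 and 12.3 CPM in KO RANKL.

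Without RANKL, 5 of the 8 members were higher in KO than in WT cells, and 2.72% of the 11673 genes were called higher and 1.11% lower. Oasl1 led with 4.95 and 4.33 CPM in WT and 24.9 and 25.7 CPM in KO, a 5.45-fold difference in mean CPM (log2 fold change 2.22 ± 0.08, limma adjusted p = 5.331e-05). Oas3 read 91.0 and 93.5 CPM against 219 and 229 CPM (1.27 ± 0.06, limma adjusted p = 9.532e-05). Oasl2 read 141 and 118 CPM against 327 and 292 CPM (1.25 ± 0.11, limma adjusted p = 0.00239). No library of either group overlapped the other in these 3 genes. Oas2 read 99.9 and 103 CPM against 185 and 204 CPM (0.93 ± 0.08, limma adjusted p = 0.0024). Oas1g read 7.34 and 9.54 CPM against 17.8 and 22.1 CPM (1.15 ± 0.23, limma adjusted p = 0.0452).

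Oas1a, Oas1b and Oas1c did not pass the test in basal cells, although their groups did not overlap, KO being the higher, as was seen in 23.4% of the genes tested. Oas1a read 32.2 and 54.0 CPM in WT and 54.7 and 83.4 CPM in KO, or 0.68 in log2 with a 95% interval of -0.20 to 1.56 (limma adjusted p = 0.454). In Oas1b, 5.84 and 6.69 CPM faced 9.47 and 13.5 CPM (0.76 ± 0.18, limma adjusted p = 0.0723). In Oas1c, 8.68 and 9.46 CPM faced 11.9 and 10.5 CPM (0.28 ± 0.10, limma adjusted p = 0.243). Libraries of the same replicate number share the kind of RNA and the processing, which is not a known pairing of mice. With that number as a block all 8 members were higher in KO basal, where 18.6% of genes were called higher. The blocked limma adjusted p was 5.449e-10 for Oas1a, 2.881e-06 for Oas1b and 0.0347 for Oas1c. Leaving both WT RANKL libraries out of the fit left 4 members higher, with 1.86% of genes called higher, since Oas1g then had a limma adjusted p of 0.0609. Oas1g also lost its call without any single WT basal, KO basal or WT RANKL library, at limma adjusted p of 0.0612 to 0.243.

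The response to RANKL was read in each genotype. In WT cells 1 member rose and 3 fell, where 40.6% of genes were called higher and 22.0% lower. Oasl2 fell from 141 and 118 CPM in WT basal to 63.8 and 58.6 CPM in WT RANKL (log2 fold change -1.06 ± 0.11, limma adjusted p = 1.523e-04). Oas1c fell from 8.68 and 9.46 CPM to 4.15 and 4.35 CPM (-0.94 ± 0.10, limma adjusted p = 1.91e-04), and Oas3 from 91.0 and 93.5 CPM to 63.3 and 62.0 CPM (-0.55 ± 0.06, limma adjusted p = 1.295e-04). Oasl1 alone rose, from 4.95 and 4.33 CPM to 7.54 and 7.45 CPM (0.59 ± 0.08, limma adjusted p = 6.528e-04). Oas2, Oas1g and Oas1a had overlapping groups, with log2 fold changes of 0.02, 0.16 and -0.37, of which those of Oas2 and Oas1g were below 0 with TMM factors (-0.18 and -0.02). Of the genes called, 64.9% were higher, and 48.6% with TMM factors. Oas1b, from 5.84 and 6.69 CPM to 4.27 and 4.86 CPM, gave -0.38 ± 0.18 in log2 (limma adjusted p = 0.0996). With the replicate block, 5 members fell, against 28.9% of genes called lower, since Oas1a (blocked limma adjusted p = 2.943e-07) and Oas1b (0.00103) then passed. Oas1b also passed without the block with TMM factors (0.0323), quantile normalization (0.00951), edgeR on the recovered reads (0.0333) or only these 2 groups (0.0468), so that 4 members fell in each of these. Between the same libraries the 6 osteoclast markers rose, and the 6 macrophage, 4 neutrophil and 2 endothelial markers tested fell. Their part was not tested. This contrast rests on the WT RANKL libraries as a whole and cannot be had without them, so a difference in the cells cannot be told apart from an effect of RANKL here.

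In KO cells, RANKL raised 7 of the 8 members, where 30.5% of genes were called higher and 26.3% lower. Oasl1 rose from 24.9 and 25.7 CPM to 221 and 225 CPM, 8.81-fold in mean CPM (log2 fold change 3.09 ± 0.08, limma adjusted p = 3.749e-07). Oas3 rose 3.56-fold in mean CPM (1.83 ± 0.06), Oas1g 3.51-fold (1.74 ± 0.23), Oasl2 2.77-fold (1.47 ± 0.11), Oas1b 2.03-fold (0.97 ± 0.18) and Oas2 1.88-fold (0.91 ± 0.08), with limma adjusted p between 6.22e-07 and 0.00286. Oas1a rose 2.27-fold (1.15 ± 0.37, limma adjusted p = 0.0328), a call that was lost without KO basal replicate 1 (0.161) or without KO RANKL replicate 2 (0.179). Oas1c read 11.9 and 10.5 CPM in KO basal and 11.3 and 12.3 CPM in KO RANKL, overlapping groups that differed by 0.07 in log2, with a 95% interval of -0.18 to 0.31. Without the WT RANKL libraries in the fit, 7 members were higher, beside 29.7% of genes. With RANKL the 6 osteoclast and 2 endothelial markers rose in KO cells and 4 neutrophil and 3 of 6 macrophage markers fell, and their part was not tested.

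The difference between these responses was tested as the interaction of genotype and RANKL: 7 of 8 members had a higher response in KO than in WT cells, where 7.46% of genes were called higher and 17.2% lower. Of the genes called 30.3% were higher, and 49.3% with TMM factors. Oasl2, Oasl1 and Oas3 had interaction terms of 2.53 ± 0.16, 2.5 ± 0.12 and 2.38 ± 0.08 on the log2 scale (limma adjusted p at most 1.031e-04). Oasl2 and Oas3 fell in WT and rose in KO cells, whereas Oasl1 rose in both. Oas1c had an interaction term of 1.01 ± 0.15 (limma adjusted p = 0.00278) that came with a fall in WT cells and no rise that passed in KO cells. For Oas1a the term was 1.53 ± 0.53 (limma adjusted p = 0.0784), and it passed with the replicate block (6.543e-14), under which all 8 members were called, beside 16.1% of genes. With no filter on low values 5 members were called, since Oas1b (limma adjusted p = 0.0606) and Oas1g (0.0913) then missed the threshold. The interaction was negative for the 6 osteoclast and 3 of 4 neutrophil markers and positive for the 2 endothelial, 2 macrophage and 1 stromal markers called, and their part was not tested. Both responses and both genotype differences use the same libraries and are not independent of each other, and the interaction rests on the WT RANKL libraries too.

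**Figure D2:**
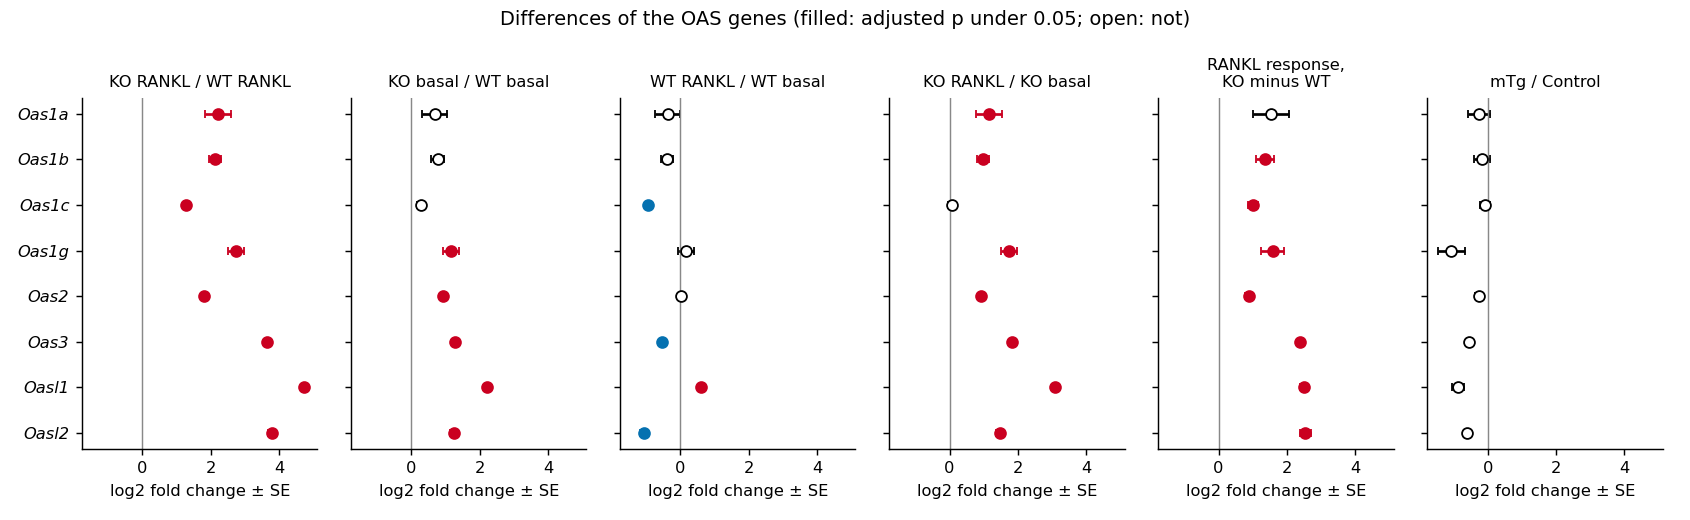
Log2 fold change ± SE of the 8 OAS genes in 6 comparisons; red points were called higher and blue points lower at an adjusted p under 0.05, and open points were not called. The first 5 panels come from limma on log2(CPM + 1) and the last from edgeR on counts. All 8 points are red for KO RANKL against WT RANKL, and all 8 lie at or left of 0 without a call for mTg against Control.

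In the gain of function libraries no member was called in mTg against Control, where 0.0995% of 12063 genes were called higher and 0.158% lower (edgeR quasi-likelihood test on counts). All 8 log2 fold changes were below 0, 5 of the 8 members had groups that did not overlap, with mTg the lower, and the same number had an unadjusted p under 0.05. Of all genes tested, 14.1% had mTg lower without overlap and 3.26% were lower at an unadjusted p under 0.05. Oas3 read 87.3 and 91.2 CPM in Control and 62.8 and 61.2 CPM in mTg (-0.53 ± 0.08, edgeR adjusted p = 0.0995). Oasl2 read 75.2 and 68.3 CPM against 49.3 and 45.3 CPM (-0.61 ± 0.09, edgeR adjusted p = 0.111). Oasl1 read 5.33 and 5.59 CPM against 2.66 and 3.37 CPM (-0.87 ± 0.17, edgeR adjusted p = 0.223). In these 3 genes every mTg library lay under both Control libraries. Oas2 read 58.8 and 65.5 CPM against 49.9 and 54.7 CPM (-0.26 ± 0.10, edgeR adjusted p = 0.682). Oas1g had 5.46 and 11.6 CPM in Control and 3.51 and 4.73 CPM in mTg (-1.06 ± 0.39, edgeR adjusted p = 0.649). Its Control replicates differed 2.13-fold, the widest gap between replicates of any member.

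Oas1a, Oas1b and Oas1c overlapped between Control and mTg, with log2 fold changes of -0.25 ± 0.32, -0.17 ± 0.23 and -0.07 ± 0.14 (edgeR adjusted p = 0.9995 for each). With the replicate block 6 members were called lower in mTg, beside 8.24% of genes, at edgeR adjusted p of 3.794e-08 (Oasl2), 1.648e-07 (Oas3), 1.067e-04 (Oas1g), 4.352e-04 (Oasl1), 5.101e-04 (Oas2) and 0.00961 (Oas1a). Oas1b (0.512) and Oas1c (0.759) were not called with the block. DESeq2 called 2 members lower, Oas3 (adjusted p = 0.00471) and Oasl2 (adjusted p = 0.00192). Leaving out Control replicate 1 called Oas1g (edgeR adjusted p = 0.00158), and leaving out Control replicate 2 called Oasl2 (edgeR adjusted p = 0.00859).

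The makeup of the family was read from RPKM, which is CPM divided by transcript length in kilobases and allows levels of different genes to be compared. Summed over the 8 members, it was 120 and 127 in WT basal, 84.1 and 94.7 in WT RANKL, 258 and 273 in KO basal, 760 and 793 in KO RANKL, 80.2 and 93.3 in Control and 60.3 and 68.3 in mTg. KO RANKL was thus the highest and mTg the lowest condition, in an order that again spans both series. The groups were separate from each other except WT RANKL and Control, which overlapped. Oasl2 gave the largest mean share in 5 of the 6 conditions, from 22.0% in WT RANKL, where Oas2 was first with 29.9%, to 37.2% in KO basal. In replicate 2 of Control and of mTg, however, the share of Oas1a, 23.6% and 26.4%, was above that of Oasl2, 23.4% and 21.1%. Oas1a shares 57.6% of its 50-base windows with another gene, chiefly Oas1g, so its own share is uncertain. Oasl1 went from 1.77% of the family in WT basal to 4.49% in KO basal and 13.5% in KO RANKL, while Oas2 went from 21.2% to 18.9% and 12.2%. Oas1c and Oas1b together stayed small, with 0.664% and 1.63% in KO RANKL. These are RNA levels in bulk cultures, in which fewer cells of a type and less RNA per cell cannot be told apart.

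**Figure D3:**
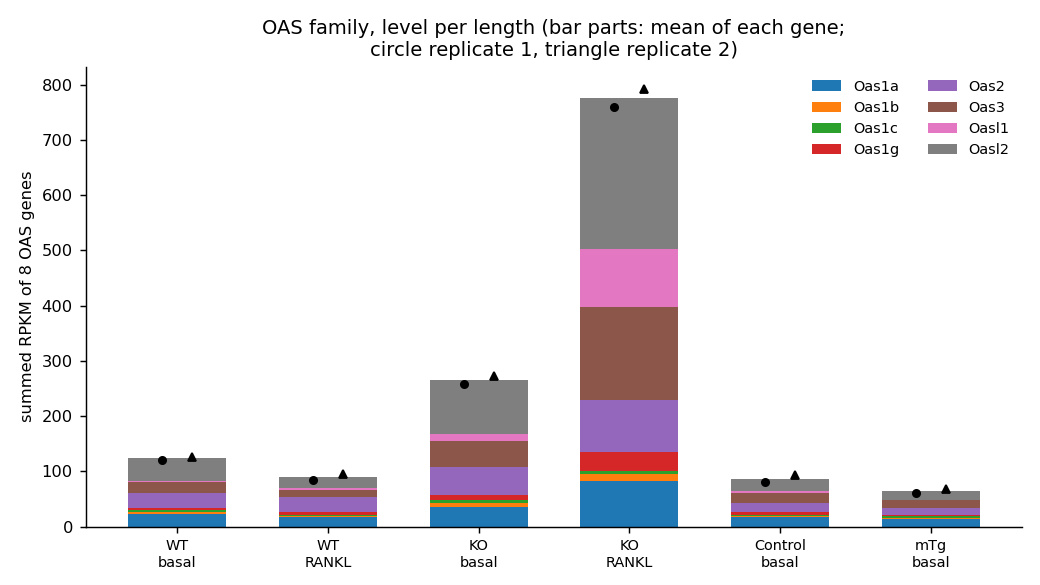
Summed RPKM of the 8 OAS genes in each condition, with bar parts for the mean of each gene; circles are replicate 1 and triangles replicate 2 of the sum. The family is highest in KO RANKL (760 and 793) and lowest in mTg (60.3 and 68.3), and the bar part of Oasl1 is widest in KO RANKL.

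Of 3 other genes listed for the oligoadenylate pathway, Abce1, Pde12 and Akap7, none was higher in KO than in WT cells after RANKL and 1 was lower, Akap7 (-0.84 ± 0.22, limma adjusted p = 0.0177). The call of Akap7 was lost with no filter, with quantile normalization, and without WT RANKL replicate 1, KO RANKL replicate 1 or KO RANKL replicate 2. Abce1, also known as a ribosome recycling factor, read 253 and 207 CPM in WT RANKL and 267 and 232 CPM in KO RANKL (0.12 ± 0.14, limma adjusted p = 0.524; blocked limma adjusted p = 0.00304). RANKL raised Abce1 in both genotypes, from 117 and 96.9 CPM in WT basal and 147 and 126 CPM in KO basal, with log2 fold changes of 1.09 ± 0.14 and 0.87 ± 0.14. Pde12 had groups that overlapped in KO against WT after RANKL.

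Among 9 genes of interferon signalling, 8 were tested, and in KO against WT cells after RANKL 6 were higher and 1, Jak1, lower. The call of Jak1 was lost with TMM factors, with edgeR on the recovered reads, with no filter, with only these 2 groups and without any 1 of the 4 RANKL libraries, and the number higher ranged from 4 to 7 over the alternatives. Irf7, the transcription factor that amplifies type I interferon, rose most, from 47.7 and 49.7 CPM in WT RANKL to 1297 and 1355 CPM in KO RANKL (4.74 ± 0.06, limma adjusted p = 7.957e-08). Stat2 read 71.3 and 72.7 CPM against 370 and 358 CPM (2.32 ± 0.06), and Irf9 59.6 and 64.8 CPM against 107 and 111 CPM (0.80 ± 0.07), both with a limma adjusted p of at most 1.209e-04. Ifnb1, the gene of interferon beta, held at most 0.197 CPM in any library and was not tested. In basal cells 2 of the 8 were higher in KO, Irf7 (1.38 ± 0.06) and Stat2 (0.68 ± 0.06), and with the replicate block 3 were higher and 2 lower. RANKL lowered Stat2 in WT cells by a log2 fold change of -1.31 ± 0.06, with 5 of the 8 lower and none higher (2 to 8 lower over the alternatives), and raised 5 of the 8 in KO cells, where 1 was lower. None of the 8 was called in mTg against Control (edgeR), where Irf7 read 34.9 and 37.0 CPM against 23.0 and 23.9 CPM (-0.62 ± 0.09, edgeR adjusted p = 0.0907). With the replicate block, no filter, DESeq2, or without either Control library, 1 of the 8 was lower, and Irf7 had a blocked edgeR adjusted p of 8.942e-07.

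Of 8 other sensors of double-stranded RNA, 7 were higher in KO than in WT cells after RANKL and 6 without it, with Mavs, the adaptor, among those not called in either. Eif2ak2, the gene of the kinase PKR, read 90.0 and 80.5 CPM in WT RANKL and 255 and 246 CPM in KO RANKL (1.55 ± 0.10, limma adjusted p = 3.005e-05). In basal cells it read 121 and 103 CPM in WT and 171 and 156 CPM in KO (0.55 ± 0.10, limma adjusted p = 0.0318). The basal count of 6 fell to 1 with no filter, to 2 with only these 2 groups and to between 1 and 4 without any 1 WT basal, KO basal or KO RANKL library, with Eif2ak2 at a limma adjusted p of up to 0.212, whereas the replicate block gave 7 higher and 1 lower. In the gain of function libraries, 1 of the 8 sensors was lower in mTg, Zbp1, with 10.3 and 9.60 CPM in Control and 4.02 and 3.87 CPM in mTg (-1.35 ± 0.13, edgeR adjusted p = 0.0449). Eif2ak2 read 121 and 111 CPM against 77.9 and 72.7 CPM there (-0.63 ± 0.09, edgeR adjusted p = 0.0848). With the replicate block 6 of the 8 sensors were lower in mTg, Eif2ak2 among them (edgeR adjusted p = 3.876e-09), and 2 were with no filter, with DESeq2 or without Control replicate 2. The OAS-fold relative cGAS (Mb21d1) was higher in KO after RANKL (1.15 ± 0.11) and in basal cells (0.67 ± 0.11), where the call was lost with no filter, with only 2 groups and without 5 of the 8 libraries in turn, and Tmem173, the gene of STING that binds the product of cGAS, was lower after RANKL (-0.88 ± 0.07). The same percentages of all genes called, given above for each comparison, apply to these lists.

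**Figure D4:**
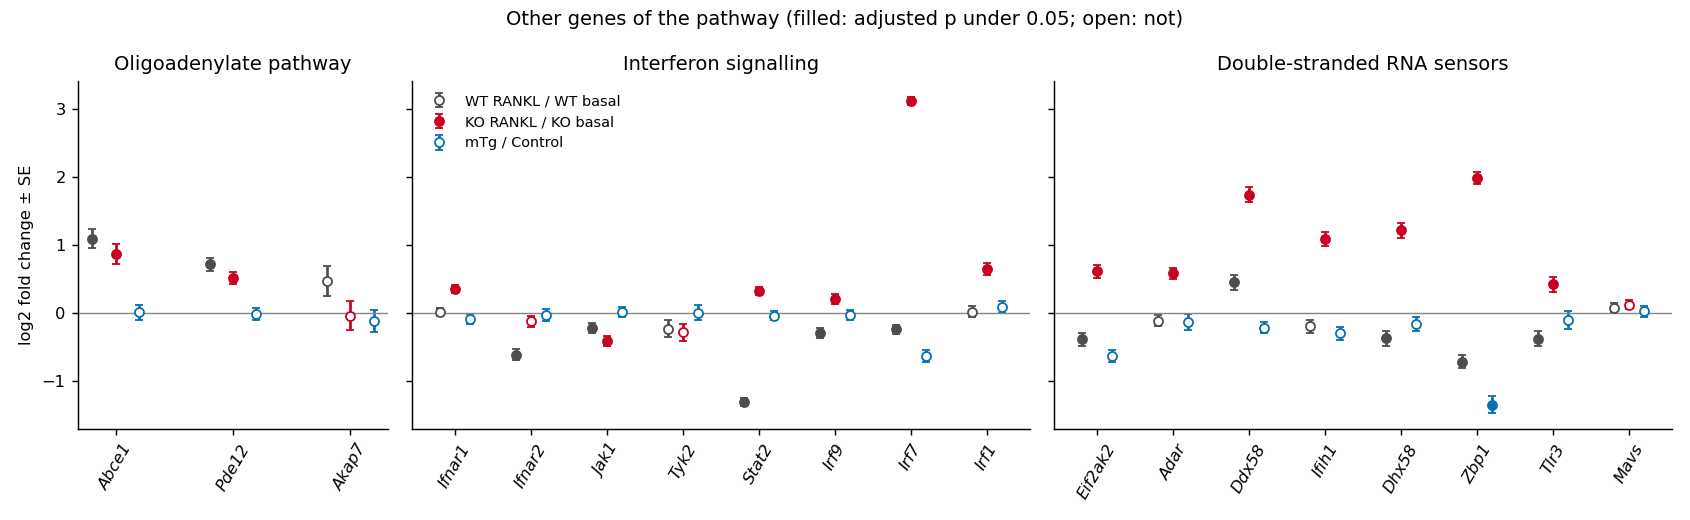
Log2 fold change ± SE of genes of the oligoadenylate pathway, interferon signalling and double-stranded RNA sensing for RANKL in WT cells (grey), RANKL in KO cells (red) and mTg against Control (blue); filled points had an adjusted p under 0.05. Abce1 lies near 1.09 and 0.87 for RANKL in WT and KO cells, and Zbp1 is the one filled blue point. Irf7 and Zbp1 lie above 0 in KO cells only among these 3 comparisons, as do Stat2, Irf9, Eif2ak2, Adar, Ifih1, Dhx58 and Tlr3.

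The genes most like the mean of the members over the 12 libraries, of 11776 genes that reached 1 CPM in 2 libraries or more, were Dhx58 (Pearson r = 0.997), Adar (0.996), Isg15 (0.993), Phf11a (0.993) and Gm12250 (0.992). These values describe a likeness over libraries that share 6 conditions and are given with no test. Dhx58, the gene of the RNA helicase LGP2, read 41.1 and 47.0 CPM in WT RANKL and 224 and 249 CPM in KO RANKL. Isg15, a ubiquitin-like modifier, read 12.6 and 15.8 CPM in WT RANKL and 212 and 282 CPM in KO RANKL. Among the members, pairwise r ranged from 0.689 (Oas1c and Oasl1) to 0.975 (Oas3 and Oasl2) with a median of 0.941 over the same 12 libraries, and Oas1c was part of the 7 lowest pairs.

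The microRNA that the mice lack or carry in excess is shown with its seed, bases 2 to 8, in capitals, as RefSeq gives it for chr6:30165962-30165986, minus strand (GRCm38.p6), because the 3′ ends of the members were searched for the letters that pair with it.
mmu-miR-182-5p: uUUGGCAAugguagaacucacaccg
The letters TTGCCAA, which pair with bases 2 to 8, occurred in an annotated 3′ UTR of 0 of the 8 members and of 13.4% of 19517 genes with such a region. TGCCAAA, which pairs with bases 2 to 7 and has an A opposite base 1, occurred in 0 of the 8 members and in 14.8% of these genes. The absence of a match says only that these letters are not in the annotated regions.

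Replicate 2 and replicate 1 differed in the same direction in all 6 conditions for 5 members. Oas1a read 1.53 to 1.71 times as high in replicate 2, Oas1g 1.25 to 2.13 times, Oas1b 1.14 to 1.43 times and Oas2 1.03 to 1.11 times. Oasl2 was lower in replicate 2 in all 6, at 0.839 to 0.919 times, while Oas3 stayed within 0.975 to 1.04 times. The submitters' notes name TopHat and Cufflinks for replicate 1 and HISAT2, HTSeq and edgeR for replicate 2, and the labels give polyA RNA for replicate 1 and total RNA for replicate 2, so that replicate number, RNA and processing cannot be told apart. Rn45s, the ribosomal RNA precursor, read 742 to 1176 CPM in replicate 1 and 9778 to 21270 CPM in replicate 2. Of the 50-base windows of its transcripts, Oas1a shared 57.6% with another gene, chiefly Oas1g, and Oas1g shared 45.7%. Shares were 15.1% for Oas1c, 2.98% for Oas1b, 0.521% for Oas3, 0.138% for Oasl2 and 0 for Oas2 and Oasl1. Reads of Oas1a and Oas1g may therefore be split between them or left out of the counts, and their separate levels are uncertain.

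**Figure D5:**
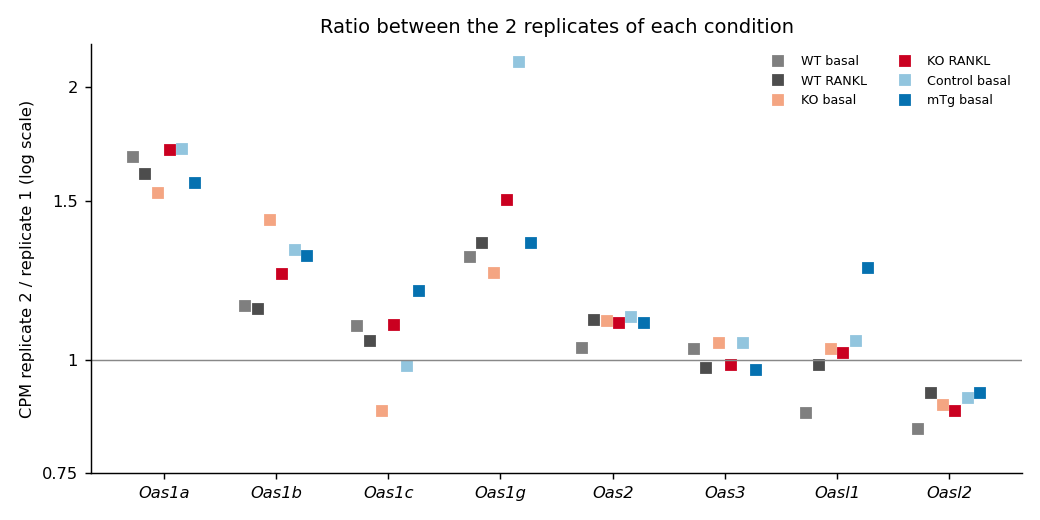
Ratio of CPM in replicate 2 to replicate 1 (log axis) for each OAS gene in the 6 conditions; the line marks equal levels. Oas1a lies between 1.53 and 1.71 in all 6 conditions, Oas3 close to 1, and Oasl2 under 1 in all 6.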

How the data were processed

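RNA was sequenced from 12 libraries of mouse bone marrow-derived macrophages, in 6 conditions of 2 replicates. For loss of function the authors deposited CPM and RPKM per gene, and for gain of function read counts per gene, per the file headers, on mm10. The submitters' notes name TopHat and Cufflinks for replicate 1 and HISAT2, HTSeq and edgeR for replicate 2. Counts of Control and mTg were scaled to CPM, and to RPKM with the lengths that the deposited RPKM imply. Of 24421 listed names, 27 date-like names were left out. The CPM values gave whole reads within 0.05 read in 100% of cases.

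Loss of function was tested with limma 3.58.1 (trend) on log2(CPM + 1) of genes that reached 1 CPM in 2 or more of 8 libraries, all 4 groups in 1 fit. Gain of function was tested with edgeR 4.0.16 (quasi-likelihood, TMM, filterByExpr) in R 4.3.3. P-values were adjusted over all genes tested by Benjamini-Hochberg, with a threshold of 0.05, and both tests were tested on simulated data. The simulated counts held no shared difference between replicate numbers, which these libraries have, so the simulation cannot speak to that case. Alternatives were other filters, pseudocounts, scalings, edgeR on the recovered reads, DESeq2 1.42.0, leaving out each library, and a replicate block. Deviations from the group means correlated between same-numbered libraries in all 15 pairs of conditions (r = 0.686 to 0.754). WT basal and Control, which belong to different series, were among them (r = 0.746). Same-numbered libraries thus share a difference that cannot be told apart from RNA and processing. It shows no pairing of mice or cultures, so blocked p-values are not those of a paired design. The 2 libraries of each group differed beyond sampling noise. The members and gene lists were chosen with earlier results of these data known. Genes named were the members, the genes of the fixed lists on which a result turns, and the 5 genes most like the mean of the members. Results on 2 listed genes are not reported here. Use of strand in counting is not given in the sources used here, so reads of overlapping genes cannot be told apart. Intervals cover the spread between libraries, and floors counting error only.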

Additional observations from a re-analysis of the deposited data

Results flagged for a closer look

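The response to RANKL differed between KO and WT cells, by the interaction term of the limma fit, in 7 OAS genes, beside 7.46% of all genes tested with a higher response in KO cells. With no filter on low values 5 remained called, without Oas1b (limma adjusted p = 0.0606) and Oas1g (0.0913). On the log2 scale the term was 2.53 for Oasl2, 2.5 for Oasl1, 2.38 for Oas3, 1.58 for Oas1g, 1.36 for Oas1b, 1.01 for Oas1c and 0.88 for Oas2. All 7 rest on the WT RANKL libraries, which stand apart in Lyz2 and Ifi202b, and the part of that in the terms was not tested.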

How the results depend on the processing

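All 8 members were higher in KO RANKL than in WT RANKL under every alternative run. The number of members called changed with the replicate block to 8 in KO against WT basal, also with TMM factors or edgeR beside the block, to 7 (1 higher, 6 lower) for RANKL in WT cells with either of these, and to 6 in mTg against Control, where no filter and DESeq2 each gave 2. Without the block, no filter gave 5 for the interaction, 6 for RANKL in KO cells and 4 in KO against WT basal, edgeR or only 2 groups gave 4 in KO against WT basal, and TMM, quantile normalization, edgeR or only 2 groups gave 1 higher and 4 lower for RANKL in WT cells. Leaving out 1 library gave 8 to 8 members in KO against WT after RANKL, 4 to 5 in basal cells, 4 to 4 for RANKL in WT, 6 to 7 for RANKL in KO, 7 to 7 for the interaction and 0 to 1 in mTg. In the edgeR test with filterByExpr, all libraries and no block, 0 members were called in mTg. There 5 members had an unadjusted p under 0.05, as had 863 of 12063 genes. Over all genes the block moved the calls from 5275 to 8546, 446 to 3643, 7304 to 9551, 6629 to 9220, 2875 to 6878 and 31 to 1835 in the 6 comparisons in the same order. edgeR on the recovered reads called 4929, 410, 7206, 6911 and 2237 genes in the first 5. In basal KO against WT, 104 genes were called with 2 groups alone and 97 to 295 without 1 library, and in mTg 136 with no filter (50% higher, against 38.7%), 124 with DESeq2 and 56 to 165 without 1 library.

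Some small log2 fold changes turned direction. For RANKL in WT cells Oas1g gave -0.0235 (TMM, with and without block), -0.0161 (edgeR), -0.11 (quantile) and -0.0332 (edgeR with block), and -0.0300 to 0.36 without 1 library. Oas2 gave -0.18 (TMM, with and without block), -0.11 (quantile) and -0.19 (edgeR, with and without block), and -0.0502 to 0.10 without 1 library. Without 1 library, mTg against Control ranged from -0.60 to 0.19 for Oas1a, -0.37 to 0.0441 for Oas1b, -0.19 to 0.0519 for Oas1c and -0.10 to 0.14 for Abce1, RANKL in KO from -0.0192 to 0.15 for Oas1c, and KO against WT RANKL from -0.0236 to 0.27 for Abce1. The cause was not tested. Of 816 alternative values of the members, 748 kept direction and side of the threshold, 34 passed it newly, 15 lost it and 19 reversed. Genes near 3 reads could not be compared at this depth.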
